A study of Homo sapiens with 8 samples.

Results

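Interferon-stimulated genes and the RNA sensors that start the interferon response were described in the podocyte-derived human line AB8 with and without an induced CRB2 construct. The set holds 36 genes chosen by name, with RIGI entered under its older symbol DDX58, and all 36 were found among the 58395 genes of the count table. Both groups carried the same modification, pIND21_hCrb2+GFP_S267A, an inducible vector for human CRB2 joined with GFP and carrying S267A. The induced cells were given doxycycline for 48 h (4 libraries) and the non-induced cells were not (4 libraries), and the labels give passages 3 to 8 after modification for both. Replicate numbers 1 to 4 are used in both groups, but their meaning is not labelled, nor is it labelled whether replicates came from different cultures. The p-values therefore measure how much these libraries vary, which may be technical. Cells that received the drug but lack the construct were not analysed here, so doxycycline itself, raised CRB2, GFP and the S267A change cannot be told apart.

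RIG-I and MDA5, the products of RIGI and IFIH1, bind double-stranded RNA in the cytosol and signal through MAVS to transcription factors that switch on interferon genes. Secreted type I and type III interferons bind receptors linked to the kinases JAK1 and TYK2, and a complex that contains STAT2 and IRF9 then binds the interferon-stimulated response element (ISRE) in promoters. The target genes block viral replication at many steps, and several of the sensors are themselves targets. In podocytes, states of high interferon are known for their link with collapsing glomerulopathy.

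Libraries held 19008593 to 23081616 counted reads in induced cells and 16829454 to 21731488 in non-induced cells. CRB2, the gene of the construct, had 1734, 4252, 4599 and 4481 CPM (counts per 1e6 reads, on TMM-scaled totals) in induced libraries 1 to 4, against 8.31, 26.01, 26.4 and 21.8 CPM in non-induced libraries 1 to 4, so the labels held in all 8 libraries. Both libraries numbered 1 stood apart from the rest of their groups across the transcriptome. Values without them stand beside some of the results they move, not beside all. The podocyte label was only partly matched by markers. NPHS1, which encodes the slit diaphragm protein nephrin, had 3 reads over all 8 libraries, while CD2AP had 3436 or more reads in each library and SYNPO 407 or more. Summed podocyte markers lay at 292 to 313 CPM in induced and 263 to 304 CPM in non-induced libraries. Summed leukocyte markers (10 genes) lay at 2.81 to 3.85 CPM in induced and 4.11 to 4.48 CPM in non-induced libraries, with TYROBP at 0 reads throughout. Summed tubular and parietal markers (7 genes) lay at 395 to 554 CPM in induced and 604 to 666 CPM in non-induced libraries. PAX8 and CLDN1 made up nearly all of that sum. PAX8 had 281 to 406 CPM in induced and 430 to 484 CPM in non-induced libraries. CLDN1 had 107 to 146 CPM in induced and 156 to 180 CPM in non-induced libraries. CDH16, next in level, had 0.919 to 1.89 CPM in induced and 0.700 to 1.64 CPM in non-induced libraries, and LRP2 was at 0. The part of either marker difference in the results was not tested. A count of 0 allows up to 3 reads, which is 0.131 to 0.179 CPM depending on the library and covers counting error only.

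Promoters were available from RefSeq (GRCh38.p14) for 31 of the 36 genes, as windows of 250 bases before to 50 bases after the start. The 9-letter core of the ISRE, GAAANNGAA, was searched on both strands, as was TTCNNNGAA, the interferon-gamma activated site (GAS), which reads the same on both strands. The ISRE core was found for 21 of the 31 genes (67.7%), against 9.86% of all 27305 genes with windows, and GAS for 9 of the 31 (29%) against 9.38%. A GAS match overlapped an ISRE core match in windows of BST2, IFI27 and MX1. These matches describe the letters of the windows and no binding was measured. The 6 stretches below are the 200 bases before the start, printed 5′ to 3′ on the gene's strand. IFIT1 and ISG15 are shown as the textbook targets with cores in overlap or close together, IFIH1, SAMD9, SAMD9L and IRF1 because the results turn on them. Capitals mark ISRE core matches, and in IRF1 the GAS match. The stretches lie at chr10:89392423-89392622 (IFIT1, plus strand), chr1:1013297-1013496 (ISG15, plus), chr2:162318685-162318884 (IFIH1, minus), chr7:93117980-93118179 (SAMD9, minus), chr7:93148386-93148585 (SAMD9L, minus) and chr5:132490774-132490973 (IRF1, minus).
IFIT1: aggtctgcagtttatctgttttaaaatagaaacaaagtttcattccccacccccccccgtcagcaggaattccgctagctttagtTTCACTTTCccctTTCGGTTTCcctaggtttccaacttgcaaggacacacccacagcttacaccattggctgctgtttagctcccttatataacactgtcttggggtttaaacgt
ISG15: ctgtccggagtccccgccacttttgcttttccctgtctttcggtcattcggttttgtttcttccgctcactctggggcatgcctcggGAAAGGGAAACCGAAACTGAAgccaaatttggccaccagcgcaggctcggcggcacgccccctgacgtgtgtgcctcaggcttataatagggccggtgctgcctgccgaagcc
IFIH1: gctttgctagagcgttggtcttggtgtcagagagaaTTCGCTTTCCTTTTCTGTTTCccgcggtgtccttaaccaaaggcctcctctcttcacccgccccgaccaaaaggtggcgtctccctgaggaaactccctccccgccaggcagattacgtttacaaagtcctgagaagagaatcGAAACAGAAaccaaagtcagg
SAMD9: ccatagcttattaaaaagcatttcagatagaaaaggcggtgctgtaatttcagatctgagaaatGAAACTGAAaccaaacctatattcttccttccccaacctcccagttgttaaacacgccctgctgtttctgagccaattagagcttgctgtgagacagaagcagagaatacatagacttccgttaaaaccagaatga
SAMD9L: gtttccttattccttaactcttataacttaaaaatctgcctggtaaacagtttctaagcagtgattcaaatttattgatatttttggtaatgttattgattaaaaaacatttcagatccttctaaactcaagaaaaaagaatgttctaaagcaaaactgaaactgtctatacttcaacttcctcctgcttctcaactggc
IRF1: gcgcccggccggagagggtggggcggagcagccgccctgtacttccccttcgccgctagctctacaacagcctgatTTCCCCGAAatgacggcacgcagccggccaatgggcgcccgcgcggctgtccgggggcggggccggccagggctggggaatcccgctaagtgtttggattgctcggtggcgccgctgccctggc
In IFIH1 a run of 3 overlapping core matches begins 164 bases before the start and a separate match 21 bases before it. SAMD9 and SAMD9L are neighbouring genes on the minus strand of chromosome 7, and the core was found in the window of SAMD9, 136 bases before its start, with no match in that of SAMD9L.

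At rest the set was expressed over a wide range. Of the 36 genes, 33 passed the filter on low counts, and IFI44L, BST2 and CMPK2 did not. Levels between genes are compared as CPM per kilobase of exon. On that scale the 33 tested genes had a median level of 6.56 in non-induced cells, against 4.57 for the 15630 tested genes with an exon length, whose quartiles were 1.25 and 12.8. HLA-B, which presents peptides to T cells, had the highest level of the set, 116 ± 8.58 CPM per kb in induced and 119 ± 7.94 in non-induced cells (SD, n = 4 each). ISG15, a ubiquitin-like protein that is attached to other proteins, followed with 67.2 ± 17.1 in induced and 70.7 ± 16.9 in non-induced cells. IFIT2 and IFIT3, tetratricopeptide proteins that act on viral RNA, came next at 58.6 and 46.4 CPM per kb in induced and 45.2 and 43.8 in non-induced cells, and their SDs overlapped those of ISG15. At the other end, OAS2, RSAD2, IFI27, CMPK2 and IFI44L averaged below 0.2 CPM per kb in both groups. Genes of the response ranged from among the most abundant of the set to the edge of detection.

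**Figure D1:**
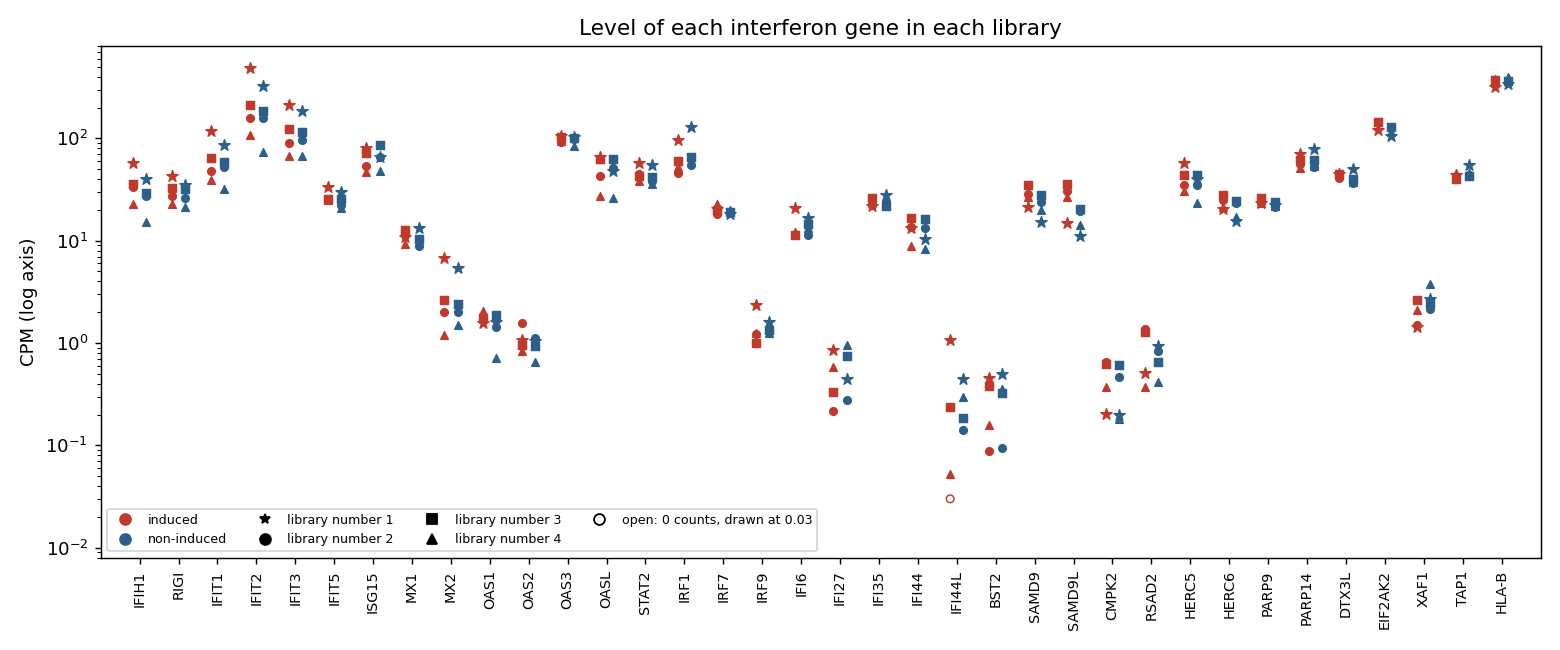
CPM of the 36 genes on a log axis, 1 point per library, induced libraries left of non-induced ones for each gene and marker shapes for the library number; an open point at the foot stands for 0 counts. The groups overlap for every tested gene, and within a group the library numbered 1 is often the highest or the lowest.

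Without a block, no gene of the set passed the test for a change with induction. In edgeR's quasi-likelihood test of all 15637 genes (Benjamini-Hochberg adjusted p at most 0.05), 0 of the 33 tested genes passed, beside a background of 0.0384% of all genes (6 genes). DESeq2 without a block also called 0 of them, against 1.33% of all genes it gave an adjusted p. At an unadjusted p under 0.05, edgeR listed SAMD9L and EIF2AK2, 6.06% of the tested set, against 9.38% of all genes. The median log2 change was 0.10 for the set and 0.00059 for all tested genes, 24 of the 33 (72.7%) lay within 0.25 of 0, against 82% of all genes, and 24 (72.7%) were positive, against 50.2%. Induced and non-induced libraries overlapped for all 33, while groups without overlap made up 7.04% of all genes.

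Same-numbered libraries deviated together from their group means, and with the replicate number as a block in the same test 13.8% of all genes passed, 7.51% higher and 6.29% lower in induced cells. Of the 33 tested genes, 6 passed (18.2%), a share close to that background. IFIH1, SAMD9, SAMD9L, EIF2AK2 and HERC6 rose and IRF1 fell. DESeq2 with the block called the same genes but HERC6, 5 in all, against 8.22% of all genes it gave an adjusted p. The blocked median log2 change was 0.10 for the set. Without the libraries numbered 1, the blocked fit called 6 genes, against 10.9% of all genes: IFIH1, SAMD9, SAMD9L and EIF2AK2 higher, and IRF1 and ISG15 lower. Between same-numbered libraries, 10 of the 33 were higher in induced cells in 4 of 4 pairs (30.3%, against 18.6% of all genes) and 2 were lower in 4 of 4 (6.06%, against 17%).

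**Figure D2:**
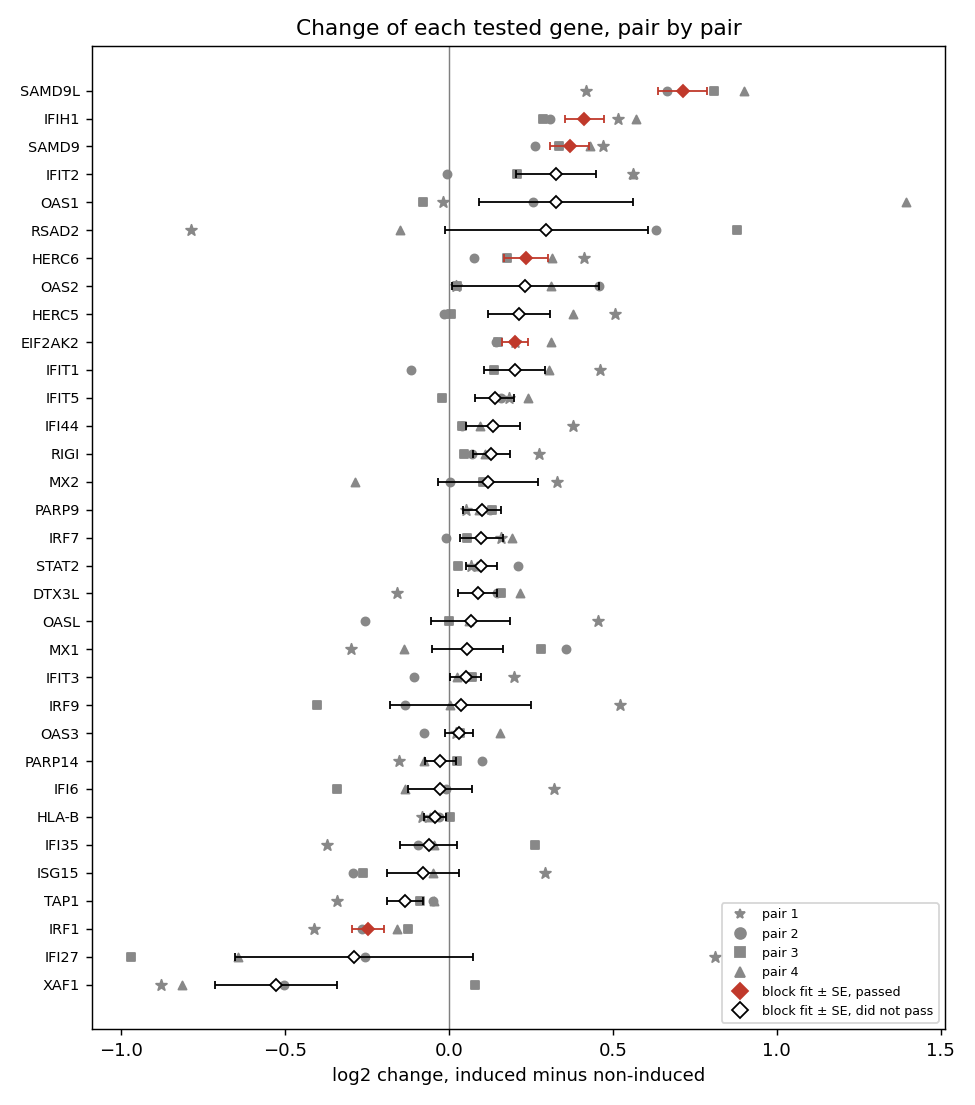
Log2 change, induced minus non-induced, of each of the 33 tested genes in each of the 4 same-numbered pairs (grey shapes), with the estimate of the fit with the replicate block ± SE (diamonds, filled where the adjusted p passed). SAMD9L has the largest positive estimate, 0.71, and IRF1 is the only filled diamond below 0.

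Among the sensors, IFIH1, which encodes the long double-stranded RNA sensor MDA5 (ENSG00000115267, GRCh38 chromosome 2, 162267079 to 162318703, minus strand), had 57.5, 33.5, 35.6 and 22.7 CPM in induced libraries 1 to 4, against 40.1, 27.0, 29.2 and 15.3 CPM in non-induced libraries 1 to 4. Each induced library lay above its same-numbered partner, by 1.22-fold to 1.49-fold, although the groups overlapped because number 1 was high and number 4 low in both. The log2 change was 0.42 ± 0.33 (SE) without the block (adjusted p = 0.791) and 0.41 ± 0.059 with it (adjusted p = 5.32e-04), and the blocked call held in each fit without 1 pair (highest adjusted p 0.00569). RIGI, the sensor of short and 5′-triphosphate RNA, had 42.7, 27.3, 33.0 and 22.9 CPM in induced libraries, against 35.2, 26.01, 31.9 and 21.2 CPM in non-induced ones. It showed the same order of library numbers as IFIH1, and was higher in 4 of 4 induced libraries, by 1.03-fold to 1.21-fold, with a blocked log2 change of 0.13 ± 0.056 that did not pass (adjusted p = 0.144) and that was 0.07 without pair 1.

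EIF2AK2 encodes PKR, the kinase that binds double-stranded RNA and halts translation (ENSG00000055332, chromosome 2, 37099210 to 37157065, minus strand). It had 121, 142, 144 and 145 CPM in induced libraries 1 to 4, against 105, 128, 129.7 and 116 CPM in non-induced libraries 1 to 4. Every pair was higher in induced cells, by 1.11-fold to 1.242-fold, and induced library 1 fell among the non-induced values. The log2 change was 0.20 ± 0.086 without the block (adjusted p = 0.517) and 0.20 ± 0.039 with it (adjusted p = 0.00432). The blocked call held without each pair in turn, with the highest adjusted p at 0.0403. EIF2AK2 and IFIH1 were thus both higher in each induced library than in its partner, while library 1 was the lowest of each group for EIF2AK2 and the highest for IFIH1.

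Of the 4 transcription factors of the set, IRF1 passed the blocked fit and the others did not. IRF1, a factor induced by interferon-gamma and by inflammatory signals (ENSG00000125347, chromosome 5, 132481609 to 132490798, minus strand), had 95.9, 45.6, 60.1 and 52.4 CPM in induced libraries, against 128, 54.8, 65.4 and 58.5 CPM in non-induced ones. It was lower in all 4 induced libraries than in their partners, at 0.751-fold to 0.918-fold, and the libraries numbered 1 held the highest value of both groups. The log2 change was -0.27 ± 0.32 without the block (adjusted p = 0.887) and -0.25 ± 0.050 with it (adjusted p = 0.00545; 0.031 without pair 1). C5orf56, on the other strand, overlaps 22.0% of the exon bases of IRF1, and whether counting used strand is not stated in the sources used here.

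STAT2, the subunit that brings a transactivation domain to its complex with IRF9, averaged 45.9 ± 8.43 CPM in induced and 42.9 ± 8.54 CPM in non-induced cells (SD, n = 4 each). It was higher in 4 of 4 pairs by at most 1.16-fold, with a blocked adjusted p of 0.185 in edgeR's test. IRF7, the factor that amplifies interferon production, had 18.4 to 22.6 CPM in induced and 18.3 to 19.7 CPM in non-induced libraries. Its spread between library numbers, 0.19 on the log2 scale, was the smallest of the 4 factors. IRF9, the DNA-binding subunit, was listed at only 1.00 to 2.33 CPM in induced and 1.26 to 1.59 CPM in non-induced libraries. A readthrough gene on the same strand, AL136295.5, covers 48.4% of the exon bases of IRF9, and 40.9% of its 75-base windows occur in that gene too, so its count is uncertain.

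The IFIT genes stand in a row on chromosome 10, IFIT2, IFIT3, IFIT1 and IFIT5, and encode proteins that bind viral RNA or the translation machinery. IFIT2 had 484, 157, 212 and 107 CPM in induced libraries 1 to 4, against 328, 157, 184 and 72.8 CPM in non-induced libraries 1 to 4. IFIT1 had 118, 48.3, 64.7 and 39.4 CPM in induced libraries, against 86.0, 52.4, 58.9 and 31.9 CPM in non-induced ones. IFIT3 had 211, 89.2, 122 and 67.8 CPM in induced libraries, against 183, 96.0, 116 and 66.6 CPM in non-induced ones. All 3 were highest in the libraries numbered 1 and lowest in those numbered 4, in both groups. Blocked log2 changes were 0.33 ± 0.12 for IFIT2, 0.20 ± 0.092 for IFIT1 and 0.05 ± 0.047 for IFIT3, with adjusted p of 0.181, 0.214 and 0.517. Single pairs decided these values. Without pair 1 the blocked log2 changes were 0.23 for IFIT2, 0.09 for IFIT1 and -0.0093 for IFIT3 (adjusted p = 0.298, 0.47 and 0.935). Without pair 2 the fit called IFIT2 (0.44, adjusted p = 0.00607) and IFIT1 (0.31, adjusted p = 0.00448). IFIT5 ran at 24.8 to 33.8 CPM in induced and 21.0 to 29.7 CPM in non-induced libraries and did not pass. AL353751.1 overlaps 8.68% of the exon bases of IFIT2 on the same strand.

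ISG15 and the ligases HERC5 and HERC6 belong together, since HERC5 is the main enzyme that attaches ISG15 to proteins in human cells. ISG15 had 81.0, 53.1, 72.3 and 46.5 CPM in induced libraries 1 to 4, against 66.1, 65.1, 86.8 and 48.0 CPM in non-induced libraries 1 to 4. Pair 1 was higher in induced cells and the other 3 pairs were lower. The blocked log2 change was -0.08 ± 0.11 (adjusted p = 0.701) with all pairs and -0.22 without pair 1, where it passed (adjusted p = 0.0229). HERC5 had 57.3, 35.0, 43.8 and 30.5 CPM in induced libraries, against 40.3, 35.4, 43.6 and 23.4 CPM in non-induced ones, so pairs 1 and 4 differed and pairs 2 and 3 barely did. Its blocked log2 change was 0.21 (adjusted p = 0.194), and 0.0971 without pair 1.

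HERC6, a related gene of the same chromosome 4 region, had 20.6, 24.7, 27.8 and 21.2 CPM in induced libraries, against 15.5, 23.4, 24.6 and 17.0 CPM in non-induced ones. Each induced library was above its partner and the groups overlapped. The log2 change was 0.23 ± 0.17 without the block (adjusted p = 0.764) and 0.24 ± 0.068 with it (adjusted p = 0.033). That call was lost without pair 1 (adjusted p = 0.129), pair 3 (0.0824) or pair 4 (0.144), and with DESeq2 under the block (0.171).

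SAMD9 and SAMD9L are neighbouring paralogues on chromosome 7 whose cytosolic proteins restrict poxviruses and slow cell growth. SAMD9L (ENSG00000177409, chromosome 7, 93130055 to 93148369, minus strand) had 14.8, 30.6, 35.7 and 26.4 CPM in induced libraries 1 to 4, against 11.04, 19.3, 20.3 and 14.1 CPM in non-induced libraries 1 to 4. Apart from induced library 1, every induced library lay above all 4 non-induced ones, and the pairs differed by 1.34-fold to 1.87-fold. The log2 change was 0.73 ± 0.28 without the block (adjusted p = 0.467) and 0.71 ± 0.075 with it (adjusted p = 5.63e-05). Without the libraries numbered 1, SAMD9L was the 1 gene of the set that passed unblocked (0.77, adjusted p = 0.0347), beside 3.44% of all genes.

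SAMD9 (ENSG00000205413, chromosome 7, 93099513 to 93118023, minus strand) had 21.2, 28.5, 35.3 and 26.9 CPM in induced libraries, against 15.3, 23.7, 28.0 and 19.98 CPM in non-induced ones. It followed SAMD9L in the order of its libraries, with 1.20-fold to 1.39-fold in the pairs. The blocked log2 change was 0.37 ± 0.060 (adjusted p = 0.00135), against 0.36 ± 0.20 without the block (adjusted p = 0.65). None of the 75-base windows of either gene occurs in another gene's transcripts, so reads of the paralogues could be told apart by sequence at full match.

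**Figure D3:**
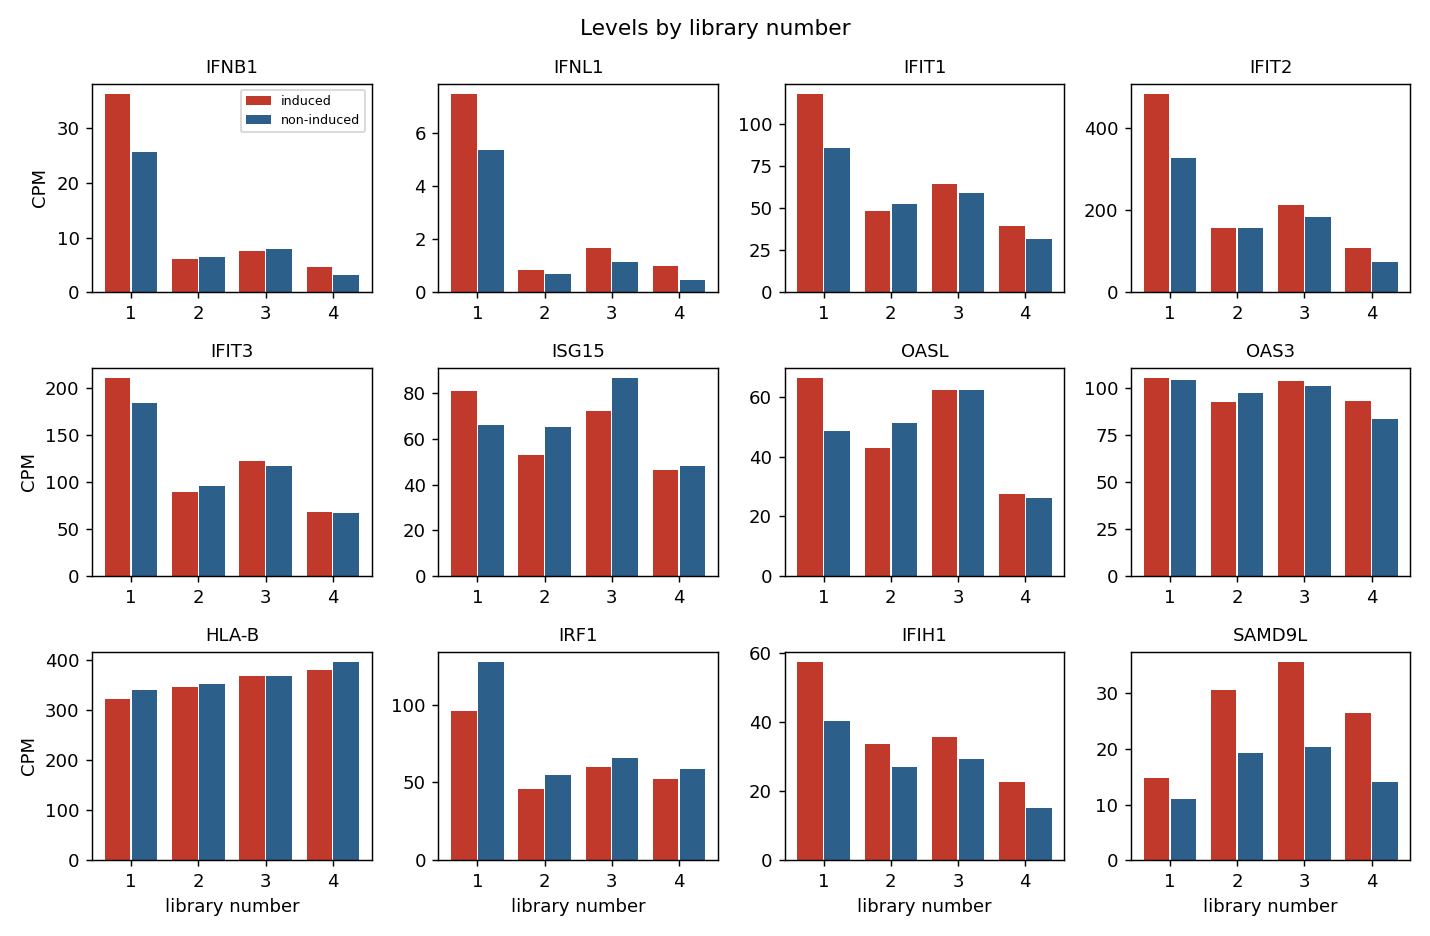
CPM by library number for 12 genes, induced bars left of non-induced bars, axes from 0. IFNB1, IFNL1, IFIT1, IFIT2 and IFIT3 are highest in number 1 of both groups, OAS3 and HLA-B are nearly level, IFIH1 and SAMD9L are higher and IRF1 lower in each induced library than in its partner.

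The oligoadenylate synthetases, which make the second messenger that activates RNase L, spanned the range of the set. OAS3, with the largest protein of the family, had 92.5 to 106 CPM in induced and 83.6 to 104 CPM in non-induced libraries, and its log2 change was 0.03 ± 0.082 (adjusted p = 0.952 without the block). OASL, a family member without the synthetase activity, had 66.4, 42.9, 62.3 and 27.4 CPM in induced libraries, against 48.4, 51.3, 62.4 and 26.3 CPM in non-induced ones. Its library 4 was the lowest in both groups, and the pairs did not share a direction. OAS1 had 31 to 40 reads per induced library and 12 to 40 reads per non-induced library, and OAS2 had 16 to 36 reads per induced and 11 to 24 per non-induced library. Both had low counts, and neither passed (blocked adjusted p = 0.403 and 0.545).

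MX1, a dynamin-like GTPase that blocks influenza viruses, had 9.35 to 12.7 CPM in induced and 8.82 to 13.3 CPM in non-induced libraries. Its relative MX2, which acts on retroviruses and herpesviruses, had 6.78, 2.01, 2.62 and 1.21 CPM in induced libraries, against 5.37, 2.01, 2.43 and 1.495 CPM in non-induced ones. The libraries numbered 1 were 3.48 times the mean of the others in induced cells and 2.72 times in non-induced cells, the widest such gap among the tested genes of the set in each group. The blocked adjusted p was 0.782 for MX1 and 0.661 for MX2, and the blocked log2 change of MX2 was 0.12 with all pairs and -0.0279 without pair 1.

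Among the small interferon-induced proteins, IFI6, a mitochondrial protein with antiviral activity, had 21.0, 11.4, 11.5 and 12.1 CPM in induced libraries, against 16.8, 11.5, 14.6 and 13.3 CPM in non-induced ones. IFI35 had 21.6 to 26.4 CPM in induced and 22.0 to 28.0 CPM in non-induced libraries, and IFI44 had 8.88 to 16.8 CPM in induced and 8.31 to 16.3 CPM in non-induced libraries. IFI44 was higher in 4 of 4 pairs, by 1.03-fold to 1.30-fold, and did not pass (blocked adjusted p = 0.31). Its blocked log2 change was 0.13 with all pairs and 0.05 without pair 1. Several genes that rank among the most strongly induced in interferon-treated cells were scarcely read here. IFI27 had 5 to 17 reads in induced and 6 to 16 reads in non-induced libraries, and IFI44L had 0 to 21 reads in induced and 3 to 9 reads in non-induced libraries. BST2, the tetherin that holds budding virions, had 2 to 9 reads in induced and 2 to 10 reads in non-induced libraries. RSAD2, which encodes the antiviral enzyme viperin, had 7 to 31 reads in induced and 7 to 19 reads in non-induced libraries. Its neighbour CMPK2, a nucleotide kinase, had 4 to 15 reads in induced and 3 to 13 reads in non-induced libraries. No fold is given for IFI44L, whose induced library 2 had 0 reads.

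PARP9, PARP14 and DTX3L lie close together on chromosome 3, PARP9 and DTX3L encoding partners in ADP-ribosylation and ubiquitination. PARP9 had 23.4, 23.2, 26.1 and 23.2 CPM in induced libraries, against 22.5, 21.2, 23.8 and 21.8 CPM in non-induced ones. It was higher in 4 of 4 pairs by at most 1.096-fold, with a blocked log2 change of 0.10 ± 0.058 (adjusted p = 0.269). DTX3L averaged 43.5 ± 1.99 CPM in induced and 41.1 ± 6.27 CPM in non-induced cells, and PARP14 averaged 60.0 ± 8.14 CPM in induced and 61.4 ± 11.7 CPM in non-induced cells (SD, n = 4 each). XAF1, a proapoptotic partner of XIAP, had 1.42, 1.49, 2.62 and 2.101 CPM in induced libraries, against 2.69, 2.15, 2.47 and 3.77 CPM in non-induced ones. It had the lowest log2 change of the set, -0.53 ± 0.26 (adjusted p = 0.578, blocked 0.0755). The blocked fit called it without pair 3 (-0.77, adjusted p = 0.0259). The gene PRAL on the other strand overlaps 38.3% of its exon bases.

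Neither antigen presentation gene of the set passed a fit. TAP1, which carries peptides into the endoplasmic reticulum, had 43.6, 42.4, 40.3 and 44.8 CPM in induced libraries, against 55.3, 43.9, 42.9 and 46.2 CPM in non-induced ones. It was lower in 4 of 4 pairs, with a blocked log2 change of -0.13 ± 0.054 that did not pass (adjusted p = 0.121). Without pair 1 the blocked log2 change of TAP1 was -0.07 (adjusted p = 0.459). HLA-B, named above for its level, had 321, 345, 368 and 380.4 CPM in induced libraries, against 340.1, 352, 367 and 396 CPM in non-induced ones. Its blocked log2 change was -0.04 ± 0.034 (adjusted p = 0.457). AL671883.2, a pseudogene on the other strand, overlaps 17.8% of the exon bases of HLA-B.

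Levels differed between the library numbers. For each gene the spread between the 4 numbers was taken as the highest minus the lowest mean log2 CPM of a pair. It exceeded the size of the mean pair change for all 33 tested genes and for 88.9% of all genes. A range over 4 values and a mean of 4 changes are unlike quantities, so nothing is read from that count. The median spread was 0.71 on the log2 scale for the set and 0.33 for all genes, and 0.46 and 0.15 when number 1 was left out. Library 1 was the highest of its group in both groups for 14 of the 33 (42.4%, against 28.2% of all genes), among them IFIH1, RIGI, 4 IFIT genes, MX2 and STAT2. It was the lowest in both for 5 (15.2%, against 28.1%), namely SAMD9, SAMD9L, HERC6, EIF2AK2 and HLA-B. By the mean of each pair, number 4 was the lowest for 18 of the 33 (54.5%, against 23%), and for 12 number 1 was also the highest (36.4%, against 14.7%). Genes are not independent replicates, and a number is 1 pair of libraries. What the numbers stand for was not tested.

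**Figure D4:**
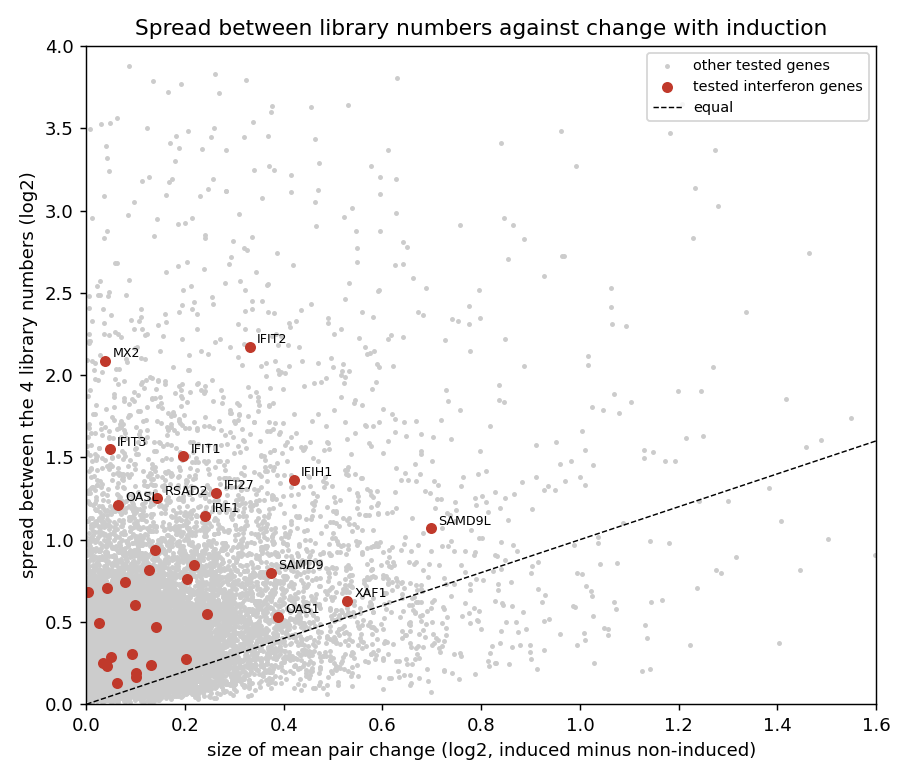
Spread between the 4 library numbers (log2, vertical) against the size of the mean change between same-numbered libraries (log2, horizontal) for the 33 tested interferon genes (red) and the other tested genes (grey; 61 lie outside the axes). All 33 lie above the dashed line of equality, IFIT2 and MX2 highest and SAMD9L farthest to the right.

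Interferon transcripts themselves were highest in the libraries numbered 1. IFNB1, the type I interferon of non-immune cells, had 36.4, 6.04, 7.48 and 4.68 CPM in induced libraries 1 to 4, against 25.6, 6.54, 7.94 and 3.17 CPM in non-induced libraries 1 to 4. IFNL1, a type III interferon, had 7.49, 0.831, 1.67 and 0.998 CPM in induced libraries, against 5.37, 0.700, 1.12 and 0.479 CPM in non-induced ones. Both were highest in number 1 and lowest by pair mean in number 4, and neither changed with induction past the test (blocked adjusted p = 0.215 and 0.0609). The interferon-alpha genes IFNA1, IFNA2, IFNA6, IFNA8, IFNA13 and IFNA21, and IFNW1 and IFNG, had 0 reads in every library. Summed leukocyte markers were low in the same libraries. TYROBP was at 0, while CSF1R had 20 to 31 reads in induced and 29 to 44 reads in non-induced libraries. Which cells the interferon reads came from was not tested.

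Of 105 further pathway genes on 6 lists, 86 were tested. Without the block edgeR called 0 of them, against 0.0384% of all genes. At an unadjusted p under 0.05 it listed 13 of the 86, against 9.38% of all genes. DESeq2 without the block called 4 of them, against 1.33% of all genes it gave an adjusted p. With the block edgeR called 18 (20.9%, against 13.8% of all genes), 7 higher and 11 lower. On the receptor list 2 of 6 were called, both lower, against 6.29% of all genes called lower, and all 6 were lower in 4 of 4 pairs, against 17% of all genes. IFNGR2, a chain of the interferon-gamma receptor, averaged 43.5 ± 5.51 CPM in induced and 62.5 ± 16.6 CPM in non-induced cells, did not overlap between groups and fell by 0.50 on the log2 scale with the block (adjusted p = 0.00283). IL10RB, shared by the interferon-lambda and IL-10 receptors, was under 1.21 CPM throughout and had a blocked log2 change of -0.85 (adjusted p = 0.0464), a call lost whichever pair was left out. IFNAR1 and IFNAR2, the type I interferon receptor, did not pass edgeR with the block, with log2 changes of -0.09 (adjusted p = 0.214) and -0.60 (adjusted p = 0.0526). IFNAR2 passed DESeq2 with the block (adjusted p = 4.53e-04), and edgeR with the block without pair 1 (-0.43, adjusted p = 0.0176) or pair 2 (-0.73, adjusted p = 0.00607). A readthrough gene, AP000295.1, covers 44.2% of the exon bases of IFNAR2 and 38.1% of those of IL10RB on the same strand. IL10RB-DT overlaps 39.1% of the exon bases of IFNAR2 on the other strand. TMEM50B, on the other strand, overlaps 12.8% of the exon bases of IFNGR2.

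In the JAK-STAT and feedback list 1 of 11 was called with the block, against 13.8% of all genes. SOCS3, a feedback inhibitor of cytokine receptors, had 5.37, 26.7, 27.2 and 14.7 CPM in induced libraries, against 12.9, 45.5, 48.5 and 34.5 CPM in non-induced ones. Each induced library was at 0.417-fold to 0.588-fold of its partner, with a blocked log2 change of -0.97 ± 0.084 (adjusted p = 3.93e-05). JAK1, TYK2 and USP18, the protease that removes ISG15, did not pass (blocked adjusted p = 0.35, 0.581 and 0.239).

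In the sensing list 4 of 16 tested genes were called with the block, 3 higher and 1 lower, against 7.51% and 6.29% of all genes. MAVS, the adaptor of RIG-I and MDA5 on mitochondria, averaged 177 ± 8.45 CPM in induced and 159.8 ± 8.02 CPM in non-induced cells, with a blocked log2 change of 0.15 (adjusted p = 0.0142). ADAR, which edits double-stranded RNA, averaged 327 ± 6.56 CPM in induced and 294 ± 21.7 CPM in non-induced cells, with a log2 change of 0.15 (adjusted p = 0.0242). DHX58, the third RIG-I-like receptor, averaged 30.2 ± 5.05 CPM in induced and 26.6 ± 5.49 CPM in non-induced cells, with a log2 change of 0.19 (adjusted p = 0.0356). These 3 calls were lost with DESeq2 under the block (adjusted p = 0.055, 0.0524 and 0.229), without pair 3 (0.115, 0.0763 and 0.135) and without pair 4 (0.0844, 0.169 and 0.154), and that of DHX58 also without pair 2 (0.0693). TICAM1, the adaptor of TLR3, had 31.5, 31.2, 30.4 and 30.2 CPM in induced libraries, against 42.9, 38.1, 37.2 and 39.3 CPM in non-induced ones. Its groups did not overlap, and it fell by 0.35 with the block (adjusted p = 5.32e-04) and passed DESeq2 without it (adjusted p = 0.00104). CGAS and STING1, the cytosolic DNA sensor and its adaptor, and TLR3 and IRF3 did not pass, with blocked adjusted p between 0.0623 and 0.444.

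Among 38 other tested interferon-stimulated genes, 4 were higher and 4 lower with the block, against 7.51% and 6.29% of all genes. TRIM22, an antiviral tripartite motif protein, had 9.26, 5.07, 4.91 and 7.83 CPM in induced libraries, against 4.87, 3.03, 3.22 and 4.07 CPM in non-induced ones. TRIM5, the retroviral restriction factor, had 15.8, 16.2, 16.0 and 16.1 CPM in induced libraries, against 13.8, 11.3, 11.7 and 12.02 CPM in non-induced ones. Neither overlapped between groups, and the blocked log2 changes were 0.82 (adjusted p = 4.57e-04) and 0.40 (adjusted p = 0.00424). PML, the scaffold of nuclear bodies, averaged 68.1 ± 9.14 CPM in induced and 88.2 ± 1.90 CPM in non-induced cells and fell by 0.38 (adjusted p = 0.0079; 0.0853 without pair 4). SLFN5 fell by 0.14 (adjusted p = 0.0152), a call lost with DESeq2 under the block (0.0515) and without pair 3 (0.0511) or pair 4 (0.0579). On the class I presentation list 3 of 13 tested genes were called with the block, all lower, against 6.29% of all genes: HLA-E by 0.21, TAPBP by 0.23 and the immunoproteasome subunit PSMB10 by 0.39 (adjusted p = 0.0472, 0.0356 and 0.0187), each lost without pair 4, HLA-E also without pair 3 (adjusted p = 0.0623) and PSMB10 without pair 1 (0.102) and with DESeq2 under the block (0.137). Without pair 1 the log2 changes of HLA-E and TAPBP were both -0.14. AC040162.1 overlaps 34.8% of the exon bases of PSMB10 on the same strand. B2M, the light chain of class I molecules, did not pass (adjusted p = 0.119). In bulk RNA, fewer cells that express a gene and less RNA per cell cannot be told apart.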

How the data were processed

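RNA was measured in 8 libraries of AB8 cells, 4 induced and 4 non-induced, sequenced as single reads of 75 bases from a directional kit. Of the tables the authors deposited, the one with raw counts of reads for each Ensembl gene was used and the normalized one was not. Per the submitters' processing notes the tools were bcl2fastq, Trimmomatic 0.38, HISAT2 2.1.0, HTSeq 0.11.1 and DESeq2 1.24.0, with the builds hg38 and GRCh38. Neither the strand setting nor the annotation release is given in the sources used here. Of 58395 genes, 58275 matched GENCODE 29, from which symbols, coordinates and exon lengths were taken.

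With filterByExpr at a minimum count of 10, 15637 genes entered the test. It was the robust, two-sided quasi-likelihood test of edgeR 4.0.16 under R 4.3.3 after TMM scaling, with Benjamini-Hochberg adjustment over all tested genes and a threshold of 0.05. The unblocked design was the main one. CPM use TMM-scaled totals, log2 CPM a prior count of 2. The steps were tested on simulated counts in which no library number stood apart, so that feature of these data was not covered. Alternatives were DESeq2 1.42.0, RLE or library totals, no filter, no robust estimation, the replicate block and each library or pair left out.

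Whether shared numbers pair the libraries was checked over 11502 genes with mean log2 CPM above 2. Deviations from the group means correlated at 0.911, 0.704, 0.707 and 0.648 for the same-numbered pairs, and at -0.775 to 0.667 otherwise. The pairing therefore comes from the data and the shared numbers, and with the libraries numbered 1 far from the rest, part of these correlations follows from taking deviations from group means. For the genes of the set that passed the blocked fit, blocked values stand beside unblocked ones. For many other genes only the blocked value is given. In edgeR's test without the block, the log2 change was 0.37 ± 0.54 for IFIT2 (adjusted p = 0.911) and 0.14 ± 0.21 for RIGI (adjusted p = 0.919).

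All 36 genes of the set are named. From each of 6 further pathway lists the rule took the called genes of smallest p (at most 4, and at most 2 from a list with none called), and 14 further genes were named whatever their values. Results for a few of these genes and markers are not reported here. DDX60, ZC3HAV1, GBP2 and PLSCR1 were called but fall outside it. The genes, lists and rule were chosen with earlier results of these data known. Promoters are RefSeq windows.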

Additional observations from a re-analysis of the deposited data

Results flagged for a closer look

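In 12 of 118 groups of 4 libraries, the highest or lowest library lay farther from the other 3 than Dixon's 95% critical value for 4 samples allows. Chance flags about 1 in 20 groups where groups are independent and values normally distributed. These groups are genes read in the same 8 libraries, so the count cannot be compared with that rate. Of the 12, 11 were libraries numbered 1.

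In induced library 1, IFIT5 had 33.76 CPM, against 24.85 to 25.43 CPM in the other induced libraries, IFI6 had 20.96 CPM and EIF2AK2, there the lowest, 121.1 CPM. Also in induced library 1, IFNB1 had 36.4 CPM, against 4.68 to 7.48 CPM in the others, IFNL1 had 7.492 CPM, and TLR3, the endosomal sensor of double-stranded RNA, was lowest at 2.329 CPM. In non-induced library 1, IRF1 had 127.7 CPM, IFNL1 5.372 CPM, IFNGR2 87.35 CPM, JAK1 504.8 CPM and TAPBP 238.5 CPM, each the highest of its group. The remaining 1 was PARP9 at 26.1 CPM in induced library 3. IFNL1 was the 1 gene with a far library in both groups.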

How the results depend on the processing

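Without the block, the number of genes called was 6 as reported, 2159 with the replicate block, 37 without the filter, 187 with DESeq2 and 3 to 543 when a library or the pair numbered 1 was left out. Of the set, 0 genes were called as reported, 6 with the replicate block and 0 to 1 with libraries left out. Of the other pathway genes, 0 were called as reported, 18 with the replicate block, 4 with DESeq2 and 0 to 5 with libraries left out. Within the blocked fit, DESeq2 called 1058 genes and 11 pathway genes, and leaving out a pair gave 909 to 1969 genes, 5 to 8 of the set and 5 to 19 pathway genes. Pair 4 decided most, with 909 genes and 5 pathway genes left. With RLE scaling, and without robust estimation, the counts of both fits stayed within 1.5 times of those reported.

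No gene of the set that passed a fit changed direction in that fit. Without the block, directions of some genes depended on single libraries, also where the estimate was not near 0 (IFNL1 0.50, IFIT2 0.37, IFNB1 0.33, IRF1 -0.27). With the block, directions turned only in genes that did not pass that fit. IRF1 and SLFN5 passed it and kept their direction there whichever pair was left out. Their log2 changes were then -0.29 to -0.19 for IRF1 and -0.16 to -0.14 for SLFN5. With libraries left out and no block, log2 changes ranged as follows: IFI35 -0.12 to 0.0378, IFI44 -0.0174 to 0.30, IFI6 -0.27 to 0.0921, IFIT1 -0.18 to 0.50, IFIT2 -0.23 to 0.80, IFIT3 -0.32 to 0.40, IFNB1 -0.84 to 1.20, IFNL1 -0.73 to 1.80, IRF1 -0.54 to 0.0910, IRF9 -0.26 to 0.20, ISG15 -0.23 to 0.0768, MX1 -0.0437 to 0.18, MX2 -0.54 to 0.66, OAS3 -0.0376 to 0.0677, OASL -0.12 to 0.27, PARP14 -0.12 to 0.10, RIGI -0.0480 to 0.26, SLFN5 -0.30 to 0.0164, STAT2 -0.0390 to 0.24. With the block they ranged as follows when a pair was left out: IFI35 -0.18 to 0.0376, IFI6 -0.17 to 0.0722, IFIT3 -0.0093 to 0.10, IRF9 -0.20 to 0.17, MX1 -0.0464 to 0.18, MX2 -0.0279 to 0.18, OAS3 -0.0130 to 0.0682, OASL -0.0812 to 0.18, PARP14 -0.0682 to 0.0143. IFI6 also turned to 0.0060 when scaled by library totals. In the unblocked fits, leaving out a single library kept its same-numbered partner in. Library numbers were then unequal between the groups, and the part of this in those ranges was not tested. Blocked and unblocked log2 changes had the same sign for all 33 genes. Genes under about 2 CPM (OAS1, OAS2, IRF9, IFI27, RSAD2) rest on few reads, so small changes were not detectable there. Other causes of these shifts were not tested.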
